A study of Homo sapiens with 6 samples.

Results

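The genes described here are the semaphorins, plexins, netrins and slits together with their receptors, which carry the axon guidance signals first found in the nervous system. They were taken as a list of 45 gene symbols, and 44 of these had a probe set on the array with exactly 1 symbol, of 18417 such genes in all. SEMA4C had none. For NRP2 and SEMA4D, which had more than 1 probe set, the probe set with the highest mean over all 6 arrays was used. A gene was tested when its mean level over the 6 arrays lay above the 25th percentile of all genes, log2 5.50, which left 33 of the 44 among 13812 genes tested.

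Levels are log2 expression values of HT29, an established human colorectal adenocarcinoma line, grown for 7 days. The control group was 3 arrays of HT29 cells labelled with a control expression construct, and the laminin α1 group was 3 arrays of HT29 cells labelled with a laminin α1 expression construct. The arrays of a group come from separate culture passages, so the errors below measure the spread between passages. The labels name neither the vector nor its promoter, and do not say how many clones each group holds.

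Semaphorins are ligands that signal through plexins. Those of class 3 are secreted and most of them need a neuropilin as co-receptor, while the other vertebrate classes are mostly held in the membrane. Netrins are secreted proteins related to laminins and bind DCC, neogenin and UNC5 receptors, and slits bind ROBO receptors. In the intestinal epithelium DCC and the UNC5 receptors are known as dependence receptors, which can promote cell death when their ligand is absent.

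Of the 33 tested genes, 4 were lower in the laminin α1 arrays past the threshold of the limma test (adjusted p under 0.05) and 0 were higher, and 29 did not pass. Over all genes tested, 2.59% passed as lower and 2.69% as higher, or 5.29% in either direction. The 4 were PLXDC2, a membrane protein with a plexin-like domain, ROBO1, a receptor of slits, NEO1 (neogenin), a receptor of netrins and of repulsive guidance molecules, and NTN4 (netrin 4), a secreted netrin that binds laminin γ chains. PLXDC2 fell 3.44-fold, NEO1 1.42-fold and NTN4 1.34-fold, and ROBO1 fell at least 1.31-fold. ROBO1 passed the level filter only through its control arrays, and the other 3 did not depend on that. The median log2 difference of the 33 genes was -0.01, the same to this precision as the median of all genes tested, -0.01. At an unadjusted limma p under 0.05 there were 5 of the 33, all lower, against 16.7% of all genes tested in either direction. With array weights, an alternative of the same limma test, 6 of the members passed as higher and 4 as lower. That setting called 4691 of all 13812 genes tested, against 730 without weights, and the estimation of the weights stopped before it converged. In these bulk RNA samples, fewer cells with a transcript and less of it per cell cannot be told apart.

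The regions just before the start sites of these 4 genes are shown because each gene passed as lower. The regions differ in base composition. Each is the 250 bases before the RefSeq start site lying farthest upstream (assembly GRCh38.p14), read 5′ to 3′ on the gene's own strand, with every CG pair in capitals. PLXDC2 lies at chr10:19816182-19816431 on the plus strand, NEO1 at chr15:73051652-73051901 on the plus strand, NTN4 at chr12:95791156-95791405 on the minus strand and ROBO1 at chr3:79767999-79768248 on the minus strand.
PLXDC2: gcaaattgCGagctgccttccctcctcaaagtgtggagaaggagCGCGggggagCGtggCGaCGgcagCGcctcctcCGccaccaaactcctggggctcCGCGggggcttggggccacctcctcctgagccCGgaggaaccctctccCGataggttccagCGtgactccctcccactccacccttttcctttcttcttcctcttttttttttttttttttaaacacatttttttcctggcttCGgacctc
NEO1: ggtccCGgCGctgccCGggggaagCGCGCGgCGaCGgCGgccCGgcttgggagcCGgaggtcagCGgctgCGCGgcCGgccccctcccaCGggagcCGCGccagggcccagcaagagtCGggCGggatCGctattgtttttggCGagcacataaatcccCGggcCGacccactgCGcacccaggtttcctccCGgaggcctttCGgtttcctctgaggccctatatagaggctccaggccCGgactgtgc
NTN4: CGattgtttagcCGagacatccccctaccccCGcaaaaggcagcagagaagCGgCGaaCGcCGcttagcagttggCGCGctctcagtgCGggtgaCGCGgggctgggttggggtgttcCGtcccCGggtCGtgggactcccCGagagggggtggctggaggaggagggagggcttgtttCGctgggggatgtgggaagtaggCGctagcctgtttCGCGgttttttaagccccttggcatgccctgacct
ROBO1: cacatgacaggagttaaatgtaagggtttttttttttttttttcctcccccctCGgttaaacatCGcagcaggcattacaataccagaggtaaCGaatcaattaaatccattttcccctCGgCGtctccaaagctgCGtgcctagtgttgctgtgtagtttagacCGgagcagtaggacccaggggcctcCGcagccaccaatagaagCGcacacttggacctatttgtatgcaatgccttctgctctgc
The NEO1 stretch held 28 CG pairs, NTN4 20, PLXDC2 14 and ROBO1 9. Across 27303 genes with a start in the RefSeq table, the median was 10 CG pairs (quartiles 3 and 23), and 93.6% held at least 1. The median over the 38 listed guidance genes found in that table was 17.5. A GC box (GGGCGG on either strand, which overlaps a CG pair) was present once in NEO1 and in none of the other three, against 42.2% of all such stretches and 24 of the 38 guidance genes. An E-box (CANNTG, the same on both strands) occurred 2 times in ROBO1, once in NTN4 and in neither PLXDC2 nor NEO1, against 62.2% of all stretches and 20 of the 38. Neither motif was present in all 4 stretches. The table did not list SEMA3A, SEMA6A, SEMA6B, PLXDC1, NTN1, UNC5B or UNC5D. It lists 2 starts each for NTN4 and ROBO1, and which start HT29 cells use was not tested.

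Among the secreted class 3 semaphorins, 5 of 7 were tested and 0 passed, also 0 at an unadjusted limma p under 0.05. SEMA3A, which collapses growth cones through neuropilin 1 and class A plexins, read 8.49, 8.51 and 8.71 in control and 8.64, 8.71 and 8.98 in laminin α1 arrays. The groups overlapped and the difference was 0.21 (95% interval -0.02 to 0.43, adjusted p = 0.343). SEMA3F, a ligand of neuropilin 2, read 7.85, 7.58 and 7.56 in control and 8.001, 7.828 and 7.764 in laminin α1 arrays. Its groups overlapped too, since control replicate 1 lay above the lower 2 laminin α1 arrays, and the difference was 0.20 (95% interval -0.01 to 0.41, adjusted p = 0.327). With array weights SEMA3A, SEMA3F and SEMA3B passed as higher (adjusted p = 0.00901, 0.00429 and 0.00347). That setting called 4691 of all genes tested, against 730 without weights, and its weights did not converge. SEMA3B had a log2 difference of 0.11 and SEMA3C, the class 3 member linked to vascular and heart development, also 0.11, while SEMA3G had -0.07. All 5 intervals included 0, and together they ran from -0.28 to 0.43.

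SEMA3E, a class 3 semaphorin that binds plexin D1 without a neuropilin, had a mean of 5.25 over the 6 arrays, below the level filter. Its values were 5.65, 5.49 and 5.66 in control and 4.94, 4.83 and 4.95 in laminin α1 arrays. The groups were 0.54 apart at their closest. In the limma fit without the filter it was lower by a log2 difference of -0.70 (SE 0.07, adjusted p = 0.000313). Because the laminin α1 mean of 4.91 lay below the filter level, the fall is given as at least 1.08-fold, taking 5.50 as the lowest level that can be read. Its receptor PLXND1 read 6.72, 6.63 and 6.62 in control and 6.39, 6.61 and 6.36 in laminin α1 arrays. All 3 laminin α1 values were lower than all 3 control values, by 0.013 at the closest, but the difference of -0.21 (95% interval -0.38 to -0.03) did not pass (adjusted p = 0.214) and was -0.07 with array weights. SEMA3D, the other class 3 gene below the filter, had means of 3.92 in both groups.

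The membrane semaphorins of classes 4 to 7 showed 0 genes past the threshold among 10 tested, and 0 at an unadjusted limma p under 0.05. In class 4, whose members signal largely through class B plexins, SEMA4A had the largest log2 difference, 0.11 (95% interval -0.05 to 0.26, adjusted p = 0.506). SEMA4G had 0.10, SEMA4B 0.0093, SEMA4F -0.05 and SEMA4D, the classical ligand of plexin B1, -0.10. The second probe set of SEMA4D gave -0.07. In class 5, which carries thrombospondin repeats, SEMA5A had a difference of -0.01 and SEMA5B of -0.04. In class 6, ligands of class A plexins, SEMA6B had 0.06 and SEMA6C -0.02, and SEMA7A, which is anchored by a lipid and binds plexin C1 and integrins, had -0.03. SEMA6A and SEMA6D lay below the filter. SEMA6A read 4.55, 4.70 and 4.55 in control and 4.53, 4.38 and 4.32 in laminin α1 arrays, a difference of -0.19 that did not pass in the fit without the filter (adjusted p = 0.276).

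Plexins, the receptors of semaphorins, had 0 of 7 tested members past the threshold and 1, PLXND1, at an unadjusted limma p under 0.05. PLXNB2, a class B plexin of epithelia, read 10.4, 10.4 and 10.3 in control and 10.6, 10.4 and 10.4 in laminin α1 arrays, a difference of 0.09 (95% interval -0.07 to 0.26). PLXNA1, PLXNA2 and PLXNA3, the class A plexins that work with neuropilins, had differences of 0.09, 0.14 and 0.12. PLXNB1 had -0.05 and PLXNB3 0.05. With array weights PLXNA3 and PLXNB3 passed as higher, both at a log2 difference of 0.15 (adjusted p = 0.0183 and 0.0207). As said above, that setting called 4691 of all genes tested, against 730 without weights. PLXNC1 lay below the filter with means of 5.14 and 5.23. The co-receptor NRP2 was also below the filter, with means of 4.68 in control and 4.71 in laminin α1 arrays, and its second probe set differed by 0.02.

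**Figure D1:**
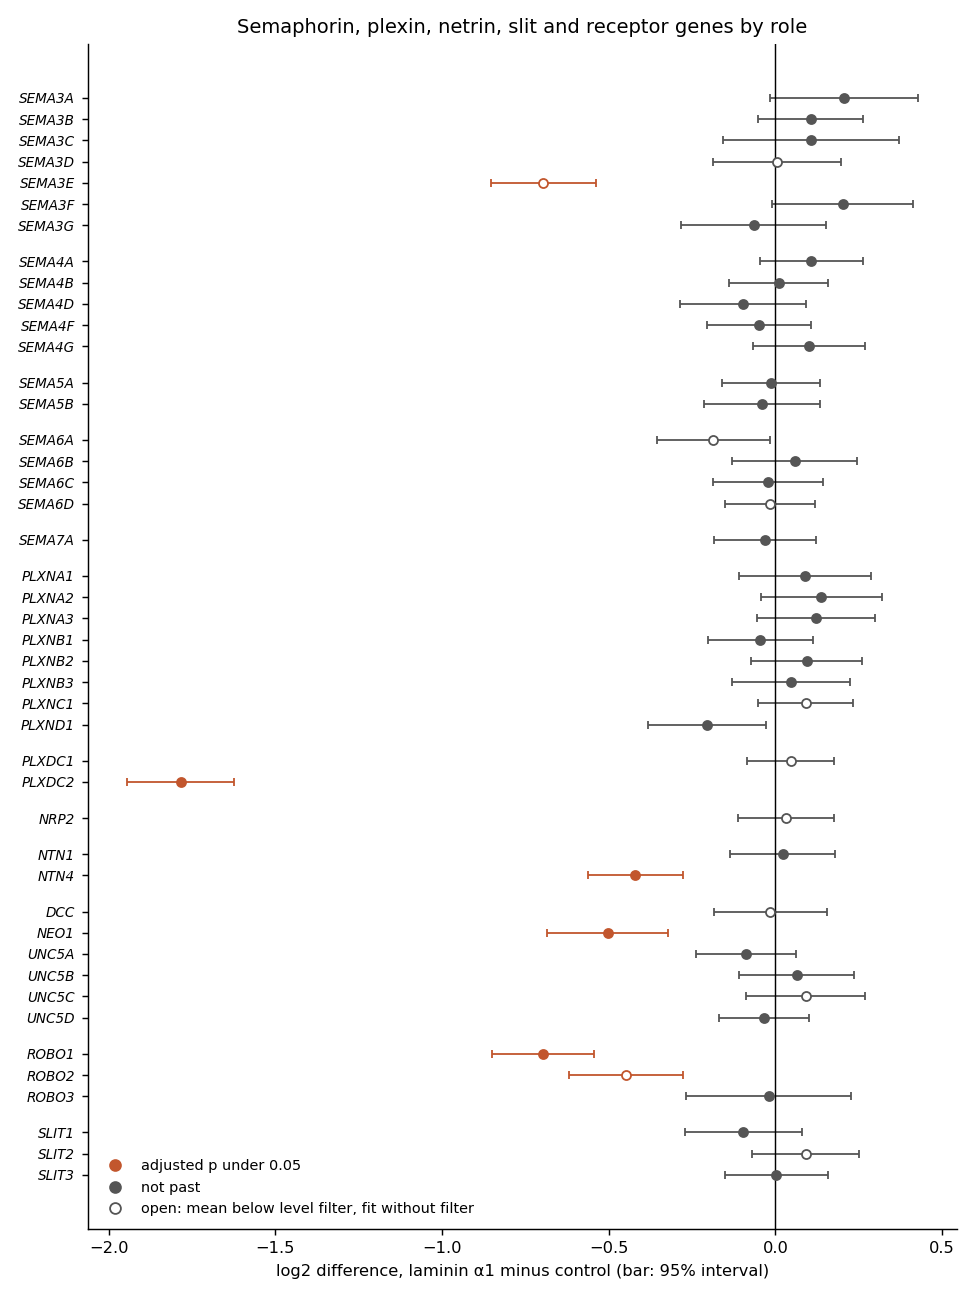
Log2 difference (laminin α1 minus control, x axis) of each of the 44 guidance genes on the array, grouped by role, with bars for the 95% interval of the limma fit (3 arrays per group). Filled points are the 33 tested genes and open points the 11 below the level filter, taken from the fit without it, and PLXDC2, ROBO1, NEO1 and NTN4, with SEMA3E and ROBO2 among the open points, are coloured as past the threshold, all to the left of 0.

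PLXDC2 and PLXDC1 share a domain with plexins but are not semaphorin receptors, and both are known as cell surface receptors of the secreted anti-angiogenic factor PEDF. PLXDC2 read 7.333, 7.505 and 7.298 in control and 5.57, 5.61 and 5.60 in laminin α1 arrays. The lowest control value exceeded the highest laminin α1 value by 1.69. The means were 7.38 ± 0.11 and 5.59 ± 0.02 (SD, n = 3), a log2 difference of -1.78 (95% interval -1.94 to -1.62, adjusted p = 7.94e-07), or 3.44-fold lower. By size this was the 8th lowest difference among the 13812 genes, and the 6th smallest p. The laminin α1 arrays lay just above the filter level of 5.50, where signal is low, so the size of the fall is uncertain. PLXDC1 stayed below the filter, at 5.40, 5.45 and 5.46 in control and 5.48, 5.50 and 5.47 in laminin α1 arrays. Its log2 difference was 0.05 (95% interval -0.08 to 0.18) in the fit without the filter. Whether the 2 genes differ in response was not tested.

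Both netrins on the list were tested. NTN4 read 7.59, 7.58 and 7.64 in control and 7.23, 7.11 and 7.21 in laminin α1 arrays, so the groups were 0.35 apart at their closest. The means were 7.60 ± 0.03 and 7.18 ± 0.06 (SD, n = 3), and the log2 difference was -0.42 (95% interval -0.56 to -0.28, adjusted p = 0.00366), or 1.34-fold lower. NTN1, the netrin that binds DCC and UNC5 receptors, read 7.58, 7.51 and 7.47 in control and 7.43, 7.59 and 7.59 in laminin α1 arrays. Its groups overlapped, with a log2 difference of 0.02 (95% interval -0.14 to 0.18, adjusted p = 0.925).

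Of 6 netrin receptors, 4 were tested and NEO1 alone passed. NEO1 read 9.43, 9.39 and 9.21 in control and 8.95, 8.80 and 8.77 in laminin α1 arrays. The groups did not overlap, and were 0.26 apart at their closest. The means were 9.34 ± 0.12 and 8.84 ± 0.10 (SD, n = 3), a log2 difference of -0.50 (95% interval -0.68 to -0.32, adjusted p = 0.00504), or 1.42-fold lower. NEO1 stood well above the filter level in both groups. UNC5A, UNC5B and UNC5D had log2 differences of -0.09, 0.06 and -0.03, with intervals from -0.24 to 0.24 between them. DCC was below the filter, at 4.75, 4.70 and 4.79 in control and 4.58, 4.82 and 4.78 in laminin α1 arrays, and so was UNC5C, at means of 4.57 and 4.66.

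**Figure D2:**
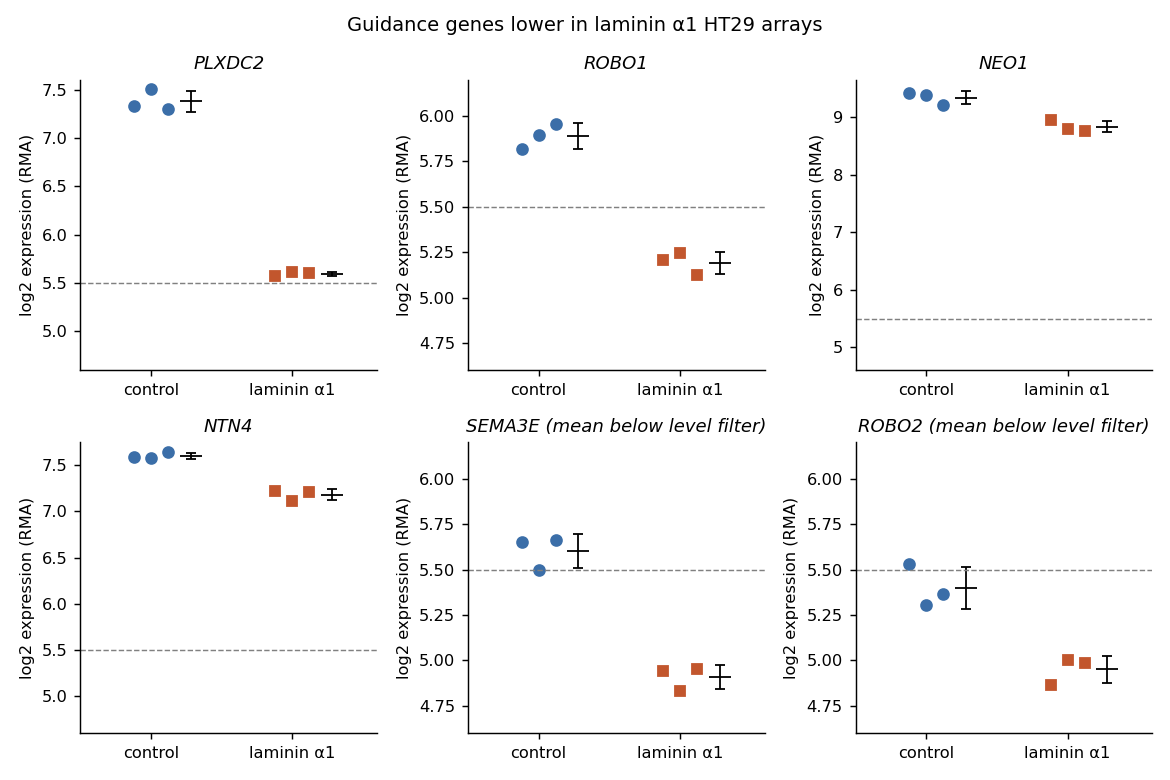
Log2 expression (y axis, a separate scale for each gene) of 6 guidance genes in each of the 3 control arrays (circles) and 3 laminin α1 arrays (squares), with the mean and SD beside them and the level filter of 5.50 as a dashed line. In every panel all laminin α1 values lie below all control values, while those of ROBO1, SEMA3E and ROBO2 also lie below the filter.

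Among the slit receptors, ROBO1 read 5.82, 5.90 and 5.96 in control and 5.21, 5.25 and 5.13 in laminin α1 arrays. The gap between the groups was 0.57. The log2 difference was -0.70 (95% interval -0.85 to -0.55, adjusted p = 0.000198). All control values lay above the filter level and all laminin α1 values below it, so ROBO1 was tested only because of its control level, and its fall is at least 1.31-fold when 5.50 is taken as the lowest readable level. ROBO2, with values of 5.53, 5.30 and 5.36 in control and 4.864, 5.004 and 4.983 in laminin α1 arrays, was below the filter in its mean. The groups did not overlap, and the fit without the filter gave a log2 difference of -0.45 (SE 0.08, adjusted p = 0.00830). No fold is given for ROBO2, since both means were under the filter level. ROBO3 read 5.94, 5.86 and 5.80 in control and 5.58, 6.06 and 5.89 in laminin α1 arrays, with a difference of -0.02 (95% interval -0.27 to 0.23).

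Of the slits, 2 of 3 were tested and 0 passed, also 0 at an unadjusted limma p under 0.05. SLIT1 read 6.06, 5.99 and 5.91 in control and 5.76, 5.99 and 5.92 in laminin α1 arrays, a log2 difference of -0.10 (95% interval -0.27 to 0.08, adjusted p = 0.623). SLIT3 differed by 0.0027, and SLIT2 was below the filter with means of 4.32 and 4.41.

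Below the filter stood 11 of the 44 genes. In the fit without it, 2 of them, SEMA3E and ROBO2, passed as lower and 0 as higher, against 0.782% lower and 0.586% higher, or 1.37% in either direction, over the 4605 genes below the filter. The other 9 differed by -0.19 to 0.09. Counting arrays only, the groups did not overlap for 5 of the 33 tested genes, all lower in laminin α1 arrays. Of all genes tested, 21.6% did not overlap, 11.5% wholly lower and 10.1% wholly higher. Of the 11 below the filter, 4 did not overlap, with SEMA3E, ROBO2 and SEMA6A wholly lower and PLXDC1 wholly higher. The share over all genes below the filter was not counted. An exact permutation test of 3 against 3 arrays, two-sided, cannot go below 0.1, and it gave 0.1 for PLXDC2, NTN4, NEO1, ROBO1, SEMA3E and ROBO2. PLXND1, SEMA6A and PLXDC1 reached the same value, although none of them was called by limma. Reaching 0.1 therefore does not separate the called genes from the others.

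Other genes of the guidance pathways, namely co-receptors, relatives and effectors inside the cell, were taken from a list of 81, of which 67 were tested. Of these 1 was higher and 1 lower, against 2.69% higher and 2.59% lower over all genes tested. The median log2 difference of the 67 was -0.02. DAPK1, a death-associated kinase that acts downstream of the netrin receptor UNC5B, read 8.55, 8.51 and 8.38 in control and 9.27, 9.24 and 9.26 in laminin α1 arrays. It rose 1.72-fold, a log2 difference of 0.78 (95% interval 0.63 to 0.93, adjusted p = 8.49e-05), and its groups were 0.70 apart. ABL1, a tyrosine kinase that acts in ROBO signalling to actin, read 8.66, 8.52 and 8.51 in control and 8.39, 8.07 and 8.08 in laminin α1 arrays. It fell 1.30-fold (log2 difference -0.38, adjusted p = 0.0452). That call was lost without any 1 of the 3 control arrays (adjusted p = 0.160, 0.126 and 0.0827 without replicates 1, 2 and 3) and without laminin α1 replicate 2 (adjusted p = 0.199) or 3 (adjusted p = 0.0670). It was also lost with no level filter (adjusted p = 0.0503), with all probe sets tested separately (adjusted p = 0.145) and with arrays centred on their medians (adjusted p = 0.0627).

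In this list 15 of 67 genes had an unadjusted limma p under 0.05, against 16.7% of all genes tested. ENAH, an actin regulator that binds ROBO1, had a log2 difference of -0.35 (adjusted p = 0.0664), and MET, a growth factor receptor that pairs with class B plexins, of -0.31 (adjusted p = 0.139). Without laminin α1 replicate 3 both passed as lower (adjusted p = 0.00507 and 0.00682), and FYN, a tyrosine kinase, passed as higher (adjusted p = 0.0390). In that setting 5 genes of the list passed, and 1211 of all genes tested against 730 with all arrays. SRGAP1, a GTPase-activating protein that binds ROBO1, had -0.19 and LIMK2, a kinase that inactivates cofilin, -0.21. NRP1, the neuropilin that binds SEMA3A, read 6.97, 7.28 and 7.30 in control and 7.48, 7.49 and 7.48 in laminin α1 arrays. Control replicate 1 stood apart from the other 2, and the difference of 0.30 did not pass (adjusted p = 0.102). TRIO and DOCK1, exchange factors that act downstream of DCC, had 0.22 (adjusted p = 0.0693) and 0.21 (adjusted p = 0.144). FARP1, FYN and CDK5 had differences of 0.21, 0.20 and 0.19, and RAP1A, RND1 and FARP2 of -0.19, -0.18 and -0.15, none of them past the threshold in the fit on the group alone.

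**Figure D3:**
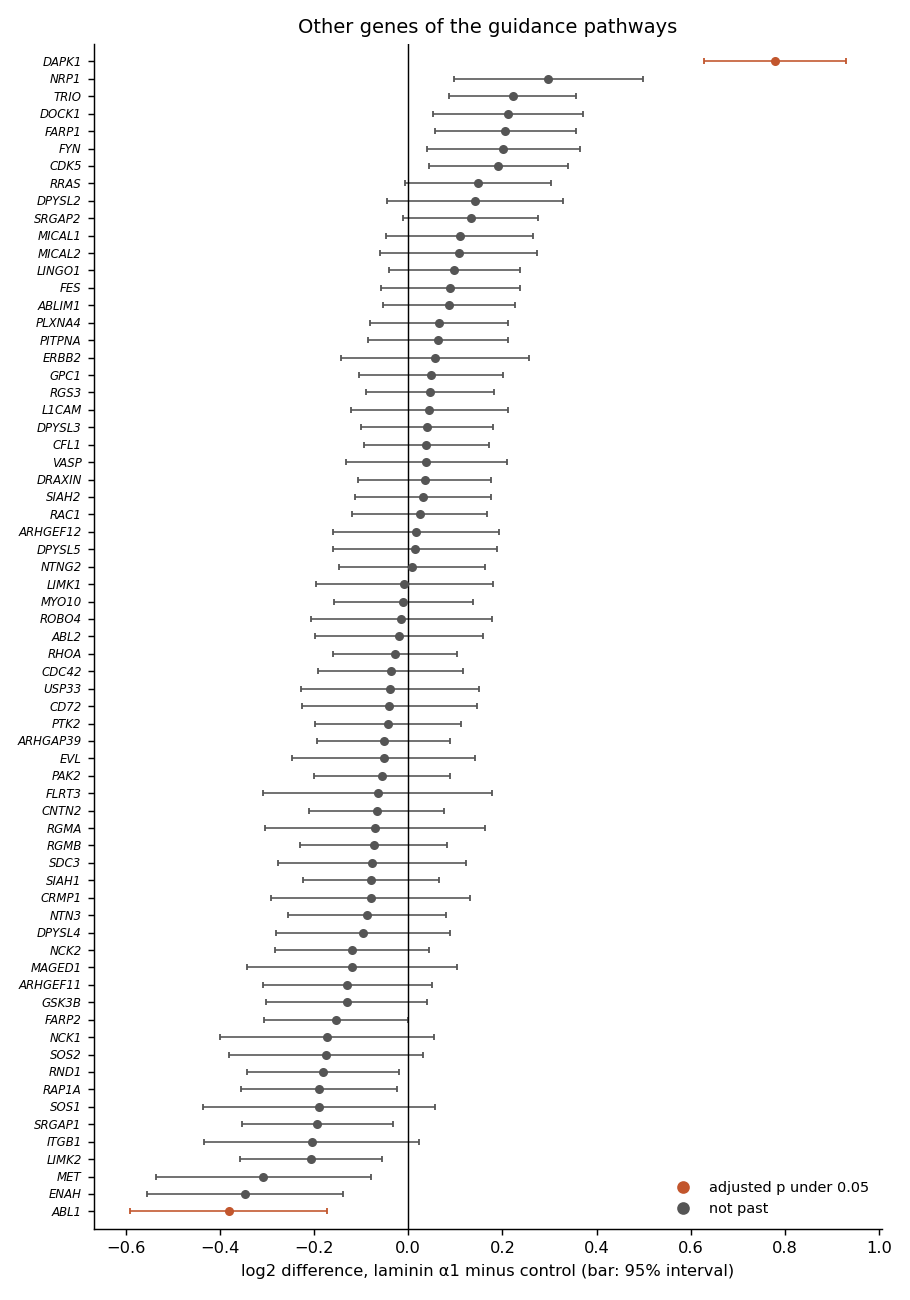
Log2 difference (laminin α1 minus control, x axis) of the 67 other guidance pathway genes tested, ordered by size, with 95% intervals of the limma fit (3 arrays per group). DAPK1 stands at 0.78 and ABL1 at -0.38, and all other genes, which did not pass, lie between -0.35 and 0.30.

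Position along the chromosome was compared with the values of these neighbours already known, so the counts are a description. In the gene order of the RefSeq assembly GRCh38.p14, ROBO1 and ROBO2 are next to each other among the genes of the array, with no array gene between them, and both were lower. Of the 20 tested genes nearest ROBO1, 10 on each side, 2 were lower past the threshold, against 2.59% of all genes tested, and 0 higher, and their median log2 difference was -0.05. These 2 were PROS1, the anticoagulant protein S, with a log2 difference of -0.76 (SE 0.08, adjusted p = 0.000364), and FOXP1, a forkhead transcription factor, with -0.30. Around ROBO2 the same 2 genes and ROBO1 passed.

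SEMA3E lies directly beside SEMA3A on the array's gene order and is separated by 3 genes from SEMA3C, neither of which passed. Of the 20 tested genes around it, 3 were lower, against the same 2.59%, and 0 higher, and their median was -0.04. GNAI1, an inhibitory G protein subunit, had -1.11 (SE 0.09, adjusted p = 4.65e-05), and ELAPOR2 and GSAP had -0.34 and -0.32. Around PLXDC2 only NMT2, an N-myristoyltransferase, passed, with -0.33, and the median of its 20 neighbours was 0.0068. None of the 20 neighbours of NEO1 or of NTN4 passed, at medians of 0.02 and -0.09. Around NTN4, 17 of the 20 differences were below 0, against 7508 of all 13812 genes tested, the lowest at -0.32. The same count was 15 around ROBO2, 14 around ROBO1, 12 around SEMA3E, 9 around PLXDC2 and 8 around NEO1. ROBO1 and ROBO2 share most of their neighbours.

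**Figure D4:**
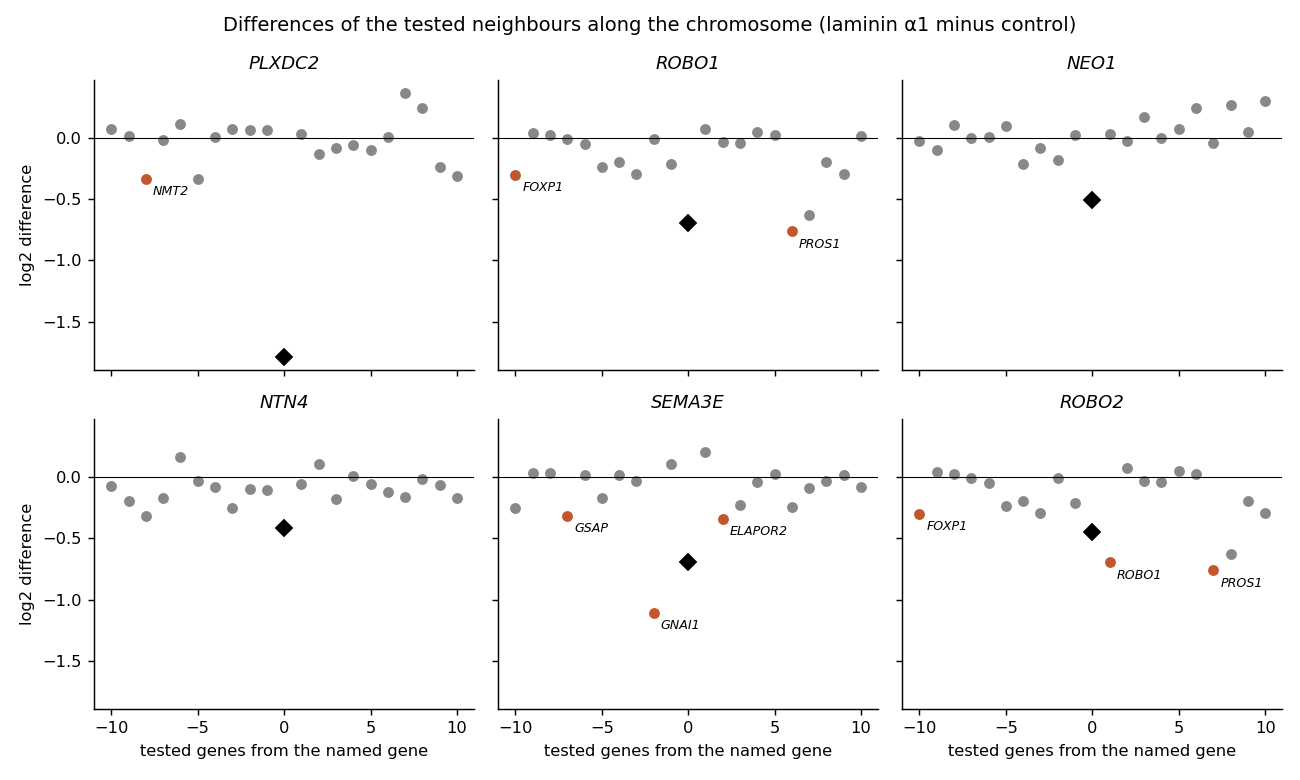
Log2 difference (laminin α1 minus control, y axis) of the 10 tested genes on each side of 6 guidance genes, by gene order along the chromosome (x axis), with the named gene as a black diamond. Coloured, labelled points passed the threshold, and no neighbour of NEO1 or NTN4 is coloured. The lowest are GNAI1 at -1.11, in position -2 from SEMA3E, and PROS1 at -0.76, in position 6 from ROBO1.

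LAMA1, the gene of the laminin α1 chain, read 5.71, 5.63 and 5.60 in control and 5.79, 5.72 and 5.71 in laminin α1 arrays, a difference of 0.09 (adjusted p = 0.535), and whether the probes lie in the sequence carried by the construct is not stated. LAMA1 therefore does not check the labels, and the groups are those of the labels. Of 7 colorectal epithelial markers, EPCAM, KRT8, KRT18, KRT19, CDX2, VIL1 and CDH1, 0 passed, and their mean level ran from 10.9 to 11.1 in control and 10.95 to 11.02 in laminin α1 arrays. Fibroblast markers (6 on the array) had mean levels of 5.56 to 5.65 in control and 5.57 to 5.64 in laminin α1 arrays. Endothelial and blood markers (5) ran from 5.40 to 5.41 and 5.42 to 5.46, and neuronal markers (5 of 6 on the array) from 5.36 to 5.38 and 5.31 to 5.38. In these 3 lists 4, 2 and 2 markers were tested and none passed. DCN, LUM and PTPRC had means over all arrays near the low end of the array, at 3.60 to 3.81. The highest means in the 3 lists were COL1A1 at 7.37, CD14 at 7.03 and RBFOX3 at 6.38, all above the filter level. For comparison, the epithelial marker CDX2 had a mean of 7.19. CD14 was higher in all laminin α1 arrays than in all control arrays, but its log2 difference of 0.20 did not pass (adjusted p = 0.284). EPCAM and MAP2 were lower in all laminin α1 arrays than in all control arrays. The difference of EPCAM was -0.12 (adjusted p = 0.434), and that of MAP2, which was below the filter and not tested, was -0.19.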

How the data were processed

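Total RNA of 6 HT29 cultures was measured on arrays, 3 per group. The authors' deposited values are log2 expression per probe set. The submitters' processing notes name RMA and Affymetrix Expression Console 1.1. RMA equalises the distribution of values between arrays, which hides any shift common to all genes. The genome build of the probes is not given in the sources used here. Values were used without further normalization. Of 33297 probe sets, the platform annotation gave 1 symbol for 19460, several for 1754 and none for 12083, and the brightest probe set stood for each of 18417 genes.

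Differences were fitted with limma 3.58.1 (lmFit, eBayes; R 4.3.3) on the group alone, and p values were adjusted by Benjamini-Hochberg over all genes tested. Differences had a median SE of 0.0754, and the number of arrays limits the precision. Tested on data simulated for the 13812 genes with each gene's own SD, the fit recovered 6% of 50 genes changed by log2 0.25, 62% at 0.5 and 90% at 1. With SDs moderated over genes it recovered 24%, 96% and 100%. Unchanged genes made up 8 of 129 calls with each gene's own SD and 12 of 172 with moderated SDs. The simulated noise was independent between genes, so deviations that genes of an array share were not covered.

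The genes, the list of other pathway genes, the markers and the tests were chosen with earlier results of these data known. Named with all values were members past the threshold, then those with an unadjusted p under 0.05, the largest difference in each role, members below the filter that passed without it, and other pathway genes past the threshold. Some further members were given values after they had been seen, and neighbours of SEMA3E and ROBO2 were added then. Alternatives were a level filter at the 50th percentile or none, probe sets averaged per gene or all tested separately, median centring, quantile normalization run again, eBayes with trend and robust settings, array weights, a replicate block, leaving out each array, and an adjusted p under 0.01. Sequences are from RefSeq.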

Additional observations from a re-analysis of the deposited data

How the results depend on the processing

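PLXDC2, NTN4 and NEO1 stayed lower and past the threshold under every alternative that tested them, leaving out each array with or without the level filter included, with adjusted p up to 9.15e-05, 0.0280 and 0.0393. PLXDC2 and ROBO1 are not tested with the filter at the 50th percentile, where 2 members were lower. Without any 1 of the 3 control arrays ROBO1 fell below the filter, and 3 members were lower (range 3 to 4). In the fit without the filter ROBO1 kept its direction and call whichever array was left out (adjusted p up to 0.00239), as did SEMA3E (0.00326) and ROBO2 (0.0338). No members were higher except with array weights, where 6 were (SEMA3A, SEMA3B, SEMA3F, SEMA4A, PLXNA3 and PLXNB3), and with the replicate block, where 2 were (SEMA3A and SEMA3F, adjusted p = 0.0492 and 0.0496).

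Deviations of same-numbered arrays correlated at 0.39, 0.02 and 0.53 for replicates 1, 2 and 3, and 4 of 6 arrays correlated best with their own number. The labels do not say that a number marks a shared batch or day, so the block stayed an alternative, and whether same-numbered arrays share more than a number was not settled. The replicate block gave 1596 genes past the threshold against 730, and 7 other pathway genes against 2 (DAPK1, ABL1, NRP1, MET, FARP1, TRIO and ENAH). Array weights gave 4691 and 28, and their estimation stopped before it converged. An adjusted p under 0.01 left 393 genes and 1 other pathway gene. Leaving out 1 array gave 405 to 1211 genes, the lowest without control replicate 2, with 429 without laminin α1 replicate 2 and the highest without laminin α1 replicate 3. It gave 1 to 5 other pathway genes. That count was 1 with no filter, 1 with all probe sets tested separately and 1 with arrays centred on their medians. With array weights SEMA5B turned to 0.037, SEMA6B to -0.0096 and SEMA7A to 0.034. When 1 array was left out SEMA5B ran from -0.11 to 0.030, SEMA6B from -0.014 to 0.11 and PLXNB3 from -0.00015 to 0.1207. The cause was not tested. Signal near the filter level limits the sizes given for ROBO1, ROBO2 and SEMA3E.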
